A study of Mus musculus with 5 samples.

Results

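The 10 Id and Hes-Hey repressor genes are Id1, Id2, Id3, Id4, Hes1, Hes5, Hes6, Hey1, Hey2 and Heyl, which were taken by name from the 21938 protein-coding genes of GENCODE release M21. For each gene, the peaks of Gfi1 and of Lsd1 were read in the gene body plus 10 kb on either side, at mm10 coordinates. The study asked where the repressor Gfi1 and the histone demethylase Lsd1 bind in Gfi1-driven medulloblastoma, a tumor of the cerebellum. ChIP-seq, in which the DNA held by an immunoprecipitated protein is sequenced, was performed on 2 MG tumors, numbered 39 (replicate 1) and 41 (replicate 2), once with anti-Gfi1 (GNE-CJS-2) and once with anti-Lsd1 (ab17721). MG tumors were grown from Prominin1+, lineage-negative neural stem cells of C57BL/6 cerebella taken from pups 5 to 7 days old by the labels, where the methods text gives a slightly younger range. The cells were infected with retroviruses encoding a point mutant of Myc and Gfi1 and transplanted into NSG mice. All 4 libraries thus come from cells that carry viral Myc and viral Gfi1, and no tumor without Gfi1 was measured by ChIP. The input control is listed as a pool of MGB (Myc/Gfi1b) tumors and has no peak list here.

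Id proteins are helix-loop-helix proteins without a DNA-binding region. They bind E proteins, the common partners of the proneural factors, and keep them from DNA, and their genes are textbook targets of BMP-Smad signals. Hes and Hey proteins bind DNA themselves, and most of their genes are switched on by Notch through Rbpj. Hes proteins recruit Groucho (Tle) co-repressors to proneural genes. In the developing cerebellum both families are known for keeping progenitors from differentiating.

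The promoters shown first are those of 3 genes that carried strong peaks of both proteins, Id2, Id3 and Hes5, beside those of 2 genes with weaker peaks, Id4 and Hey2. The latter 2 were chosen after their values were seen. Each runs from 250 bases before to 50 bases after the RefSeq start (GRCm38.p6) and is printed 5′ to 3′ along the gene. Capitals mark AATC, the core of the Gfi1 motif, and TGGGAA, the core of the Rbpj motif, on either strand (GATT and TTCCCA when they lie on the other strand).

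Id2 promoter, chr12:25096043-25096342, minus strand: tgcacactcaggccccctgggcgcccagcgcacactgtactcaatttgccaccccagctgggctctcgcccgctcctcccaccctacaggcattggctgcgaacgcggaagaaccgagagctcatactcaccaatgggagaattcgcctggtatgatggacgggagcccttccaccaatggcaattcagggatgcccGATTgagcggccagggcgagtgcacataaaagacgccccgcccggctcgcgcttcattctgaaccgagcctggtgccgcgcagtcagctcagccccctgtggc

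Id3 promoter, chr4:136143572-136143871, plus strand: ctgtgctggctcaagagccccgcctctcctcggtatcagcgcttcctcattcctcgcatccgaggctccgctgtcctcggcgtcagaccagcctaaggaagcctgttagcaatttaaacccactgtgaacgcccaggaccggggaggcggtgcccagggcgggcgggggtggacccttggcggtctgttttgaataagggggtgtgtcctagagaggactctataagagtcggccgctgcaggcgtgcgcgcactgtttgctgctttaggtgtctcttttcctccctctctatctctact

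Hes5 promoter, chr4:154960673-154960972, plus strand: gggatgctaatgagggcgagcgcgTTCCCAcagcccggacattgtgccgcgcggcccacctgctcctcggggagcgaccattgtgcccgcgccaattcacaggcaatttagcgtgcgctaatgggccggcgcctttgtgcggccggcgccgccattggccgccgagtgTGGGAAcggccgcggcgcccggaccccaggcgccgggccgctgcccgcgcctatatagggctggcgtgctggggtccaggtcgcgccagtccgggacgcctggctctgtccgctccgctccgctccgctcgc

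Id4 promoter, chr13:48260866-48261165, plus strand: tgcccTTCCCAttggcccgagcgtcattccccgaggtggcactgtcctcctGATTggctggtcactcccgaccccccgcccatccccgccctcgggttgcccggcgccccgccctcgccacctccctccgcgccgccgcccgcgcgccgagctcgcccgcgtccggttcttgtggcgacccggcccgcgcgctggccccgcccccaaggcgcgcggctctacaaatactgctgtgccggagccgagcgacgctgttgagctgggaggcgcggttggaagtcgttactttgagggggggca

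Hey2 promoter, chr10:30842734-30843033, minus strand: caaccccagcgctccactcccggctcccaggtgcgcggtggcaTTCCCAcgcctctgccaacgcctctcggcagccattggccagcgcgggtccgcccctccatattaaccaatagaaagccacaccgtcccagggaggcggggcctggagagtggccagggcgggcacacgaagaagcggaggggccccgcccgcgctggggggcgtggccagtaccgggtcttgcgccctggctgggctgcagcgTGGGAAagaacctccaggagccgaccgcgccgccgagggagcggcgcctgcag

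In these 300 bases the Id2 promoter held 1 Gfi1 core, whose first printed base lies at -53 from the RefSeq start, and no Rbpj core. The Id3 promoter held neither. The Hes5 promoter, the classical Notch-responsive one of the set, held 2 Rbpj cores, at -226 and -82, and 0 Gfi1 cores. Hey2, another Notch target, also held 2 Rbpj cores, at -207 and -3, and 0 Gfi1 cores, while Id4 held 1 of each, at -199 for Gfi1 and -245 for Rbpj. The promoters of Id2, Id3, Hes5 and Hey2 lay wholly under peaks in all 4 libraries. That of Id4 did so in 3, and 0 of its bases lay under the Gfi1 peak of tumor 41.

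Every one of the 10 genes had a peak of both proteins at a transcription start site (TSS) in both tumors, where a peak is at a TSS when it comes within 1000 bp of any annotated start of the gene. Gfi1 peaks were found there in both tumors for 10 genes, against 53.9% of all protein-coding genes. Lsd1 peaks were found for 10 genes, against 57.7%, and peaks in all 4 libraries for 10 genes, against 53.1%. A smaller set, Id1, Id2, Id3, Hes1, Hes5, Hes6 and Hey1, carried high-confidence peaks, which score in the upper 20% of the tumor 39 list and lie, for 50% or more of their length, in upper-20% peaks of tumor 41. These 7 genes had a high-confidence Gfi1 peak at a TSS (22.9% of all genes) and the same 7 had a high-confidence Lsd1 peak (25.9%), so that 7 had both (19.5%). The same 7 genes had a TSS peak in the upper 20% of the score in all 4 libraries, which held for 19.9% of all genes. The remaining genes were Id4, Hey2 and Heyl. Of these, Hey2 reached the upper 20% in Gfi1 of tumor 39 alone, and Id4 in Lsd1 of tumor 41 alone. With 2 tumors no test was run, and errors are the SD over the tumors. The tumors were analysed in bulk, so binding in fewer cells and weaker binding per cell cannot be told apart.

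The strength of a peak is given as the percentile of its score within its own list. The libraries differ in their distribution of scores and in depth, and the lists carry no read counts. The 4 lists hold from 25078 to 36836 peaks. Where a gene had several peaks at its starts, the highest-scoring one is given.

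**Figure D1:**
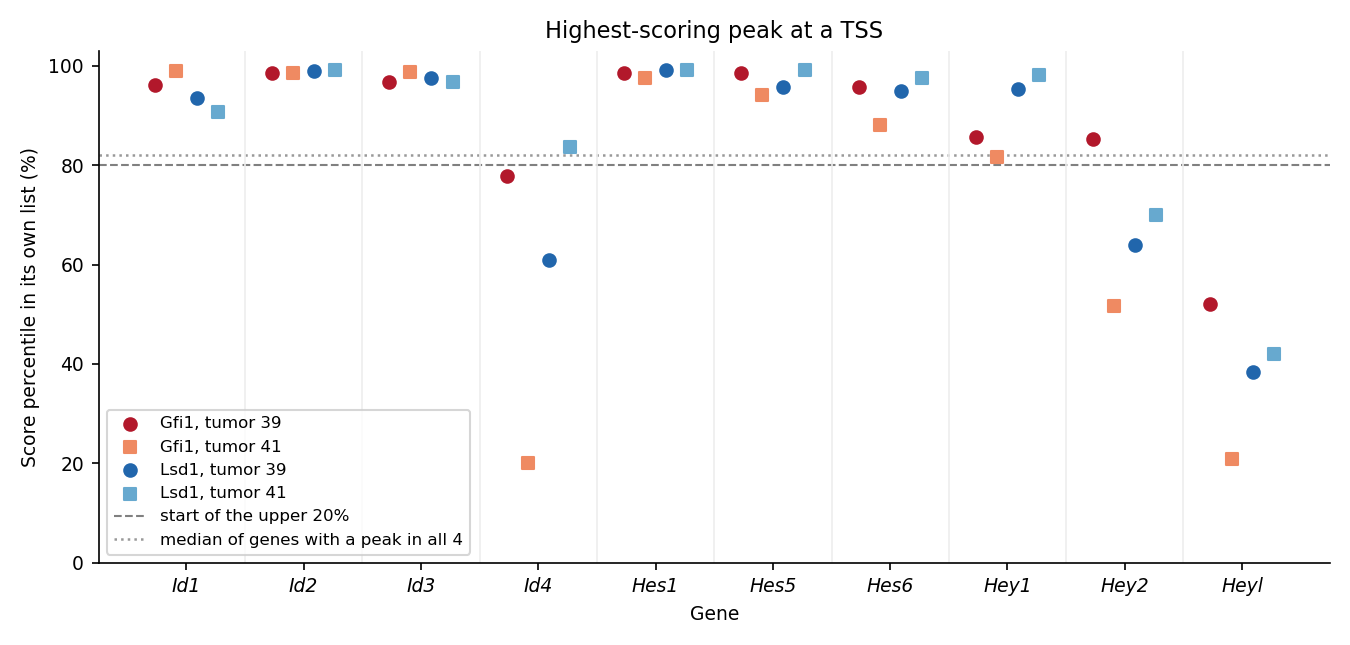
Score percentile (%, within its own list) of the highest-scoring peak at a TSS of each of the 10 genes, with 1 point per library (Gfi1 in red, Lsd1 in blue, tumor 39 as circles, tumor 41 as squares). The dashed line is the start of the upper 20% and the dotted line is the median, 82.0, of the mean percentile over the 11653 genes with a TSS peak in all 4 libraries. Id1, Id2, Id3, Hes1, Hes5, Hes6 and Hey1 lie above the dashed line in all 4 libraries, and Heyl lies below it in all 4.

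Among the Id genes, Id1, Id2 and Id3 were marked strongly and Id4 was not. Id1 (chr2:152736251-152737410, plus strand), which responds quickly to BMP, had Gfi1 peaks at percentiles 96.1 in tumor 39 and 99.0 in tumor 41, and Lsd1 peaks at 93.5 and 90.6. Its Gfi1 mean was 97.5 ± 2.08 and its Lsd1 mean 92.1 ± 2.01 (SD, n = 2), and in both tumors the Gfi1 percentile was the higher of the pair. Id2 (chr12:25093799-25097140, minus strand), an inhibitor of E proteins in neural progenitors, had Gfi1 percentiles of 98.6 and 98.5 and Lsd1 percentiles of 98.8 and 99.2. Its 4 values were the closest together of the 10 genes, and its mean over the 4 libraries, 98.8, was the highest. Only 2.27% of the genes with a TSS peak in all 4 libraries had a mean at or above it. Id3 (chr4:136143497-136145755, plus strand), often coexpressed with Id1, had Gfi1 percentiles of 96.8 and 98.8 and Lsd1 percentiles of 97.4 and 96.6, with means of 97.8 ± 1.46 and 97.0 ± 0.572 (SD, n = 2).

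Id4 (chr13:48261228-48266026, plus strand), the member of the family that can act against the other Id proteins, stood apart from them. Its Gfi1 percentile was 77.8 in tumor 39 and 20.2 in tumor 41, and its Lsd1 percentile was 60.9 and 83.6. The Gfi1 mean was therefore 49.0 ± 40.8 and the Lsd1 mean 72.3 ± 16.0 (SD, n = 2), and the 2 proteins overlapped. The Gfi1 peak of tumor 41 was 1007 bp wide and began 395 bp downstream of the annotated start, whereas the other 3 libraries had peaks across the start. The Id4 peaks, except that of Lsd1 in tumor 39, also covered annotated starts of the transcripts A330033J07Rik and Gm49291, so the signal there cannot be assigned to 1 gene.

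The Hes genes were all among the strongly marked ones. Hes1 (chr16:30064384-30067796, plus strand), the repressor whose level oscillates in neural progenitors, had Gfi1 percentiles of 98.6 and 97.5 and Lsd1 percentiles of 99.1 and 99.2. Its mean over the 4 libraries was 98.6, second to that of Id2. Hes5 (chr4:154960923-154962371, plus strand), a Notch effector of neural stem cells, had Gfi1 percentiles of 98.6 and 94.1 and Lsd1 percentiles of 95.6 and 99.2, with means of 96.4 ± 3.19 and 97.4 ± 2.50 (SD, n = 2). In Gfi1 of tumor 39 and in Lsd1 of tumor 41, Id2, Hes1 and Hes5 all had the same score, 3100, and so are not ranked against each other there. The Hes5 TSS peak of every library also covered annotated starts of the neighbouring genes Pank4 and Gm20421, which share it. Hes6 (chr1:91411483-91414038, minus strand), a family member that opposes Hes1 and favours differentiation, had Gfi1 percentiles of 95.7 and 88.0 and Lsd1 percentiles of 95.0 and 97.6. Its means were 91.9 ± 5.41 and 96.3 ± 1.85 (SD, n = 2), so that its 2 proteins overlapped.

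The 3 Hey genes ranged from strong to weak. Hey1 (chr3:8663359-8667256, minus strand), a Notch target in progenitors and vessels, had Gfi1 percentiles of 85.6 and 81.6 and Lsd1 percentiles of 95.3 and 98.1. Both Lsd1 values lay above both Gfi1 values, with means of 96.7 ± 1.98 and 83.6 ± 2.84 (SD, n = 2). Hey2 (chr10:30832359-30842801, minus strand), best known for its role in heart and vessel development, had Gfi1 percentiles of 85.2 and 51.7 and Lsd1 percentiles of 64.0 and 70.0. The Lsd1 values lay between the Gfi1 values. Heyl (chr4:123233556-123249875, plus strand), a further Notch target of the family, had Gfi1 percentiles of 52.1 and 20.9 and Lsd1 percentiles of 38.4 and 42.0, and its 4-library mean of 38.3 was the lowest of the 10 genes. Of the genes with a TSS peak in all 4 libraries, 98.3% had a mean at or above that of Heyl.

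By the mean over the 4 libraries, the order after Id2 and Hes1 was Id3 at 97.4, Hes5 at 96.9, Id1 at 94.8, Hes6 at 94.1, Hey1 at 90.2, Hey2 at 67.7, Id4 at 60.6 and Heyl at 38.3. The ranges over the 4 libraries overlapped for each pair of neighbours in this order. Within a single library, however, the 7 genes with high-confidence peaks stayed above the other 3, most narrowly in Gfi1 of tumor 39, where Hey1 at 85.6 came next to Hey2 at 85.2. The high-confidence call uses these same scores, so this is a description. The median of the 10 means was 94.4, against 82.0 for the genes with a TSS peak in all 4 libraries and 51.8 for all protein-coding genes, with genes that lack a peak set to 0.

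The strongly marked genes also had wide peaks. No width was required by the high-confidence call, but how far width goes with score in these lists was not tested. The widths of the Id1 TSS peak were 5849 and 8410 bp for Gfi1 in tumors 39 and 41, and 8489 and 8961 bp for Lsd1. Those of Id2 were 7571, 6977, 7205 and 7327 bp in the same order of libraries, and those of Id3 were 5412, 7917, 7403 and 11068 bp. Hes1 had 5325, 5819, 5917 and 6130 bp. All of these were more than the median for genes with a TSS peak in all 4 libraries, taking the widest TSS peak of each gene. That median was 2257, 2227, 2635 and 2548 bp in the same order. At the 10 genes the highest-scoring TSS peak was also the widest. Hes5 had the widest Gfi1 peaks of the 10 genes, at 10241 and 10120 bp, with Lsd1 peaks of 9968 and 6388 bp. In Lsd1 of tumor 41, its neighbouring peaks began and ended close to the ends of the wide peak of the other libraries, so that the same stretch was called in 3 pieces.

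At the other end, Heyl had peaks of 1768, 1450, 2104 and 1626 bp, each below the median of its library. Hey2 had 3041, 1685, 2214 and 1920 bp, above the median in Gfi1 of tumor 39 alone. Id4 had 2896, 1007, 2338 and 2831 bp, above it in Gfi1 of tumor 39 and Lsd1 of tumor 41. Hes6, at 4195, 4201, 4829 and 4435 bp, and Hey1, at 3056, 2898, 4649 and 4692 bp, lay between the extremes. With a limit of 5000 bp chosen after the widths had been seen, 5 of the 10 genes, Id1, Id2, Id3, Hes1 and Hes5, had a TSS peak of at least that width in all 4 libraries, which 1.98% of all protein-coding genes did. The limit decides this number, which was 6 at 4000 bp and 2 at 6000 bp.

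**Figure D2:**
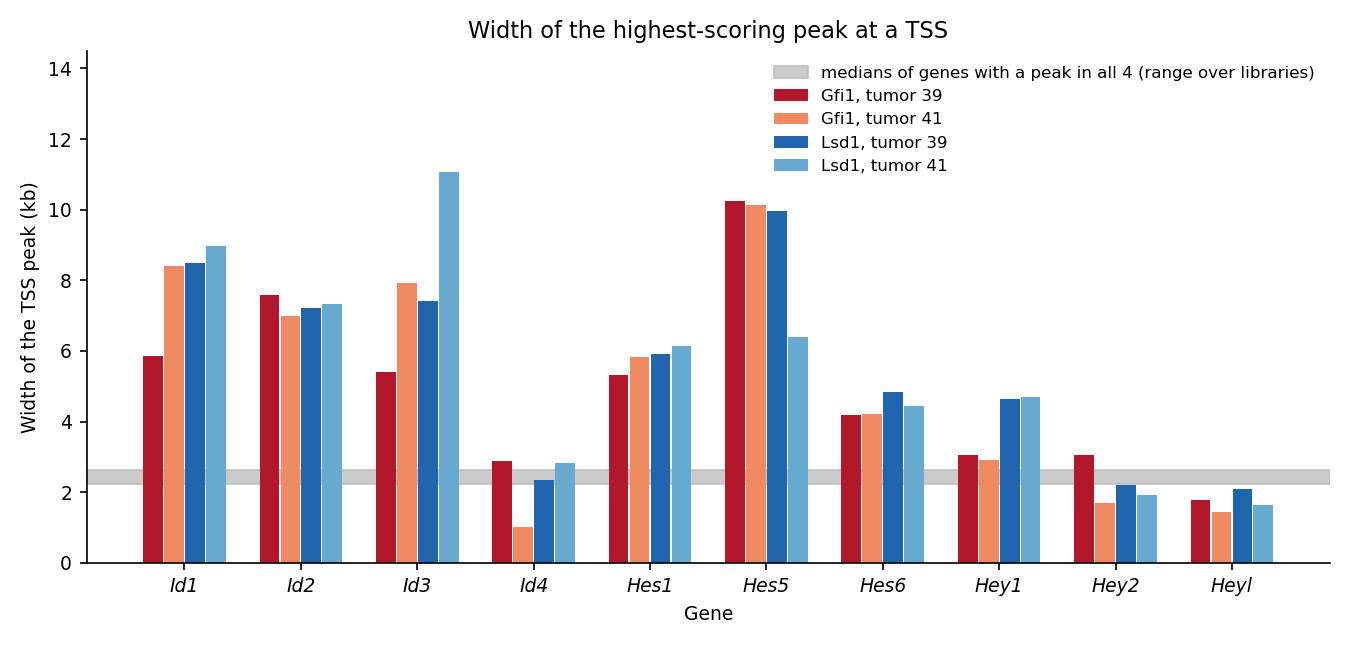
Width (kb) of the highest-scoring TSS peak of each gene, which was also its widest, with 1 bar per library. The grey band spans the 4 library medians, from 2227 to 2635 bp, of the widest TSS peak of genes with a TSS peak in all 4 libraries. The bars of Id1, Id2, Id3, Hes1, Hes5, Hes6 and Hey1 rise above the band in every library, and those of Heyl stay below it.

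These genes are short, and at Id1, Id3 and Hes5 the TSS peak ran past both ends of the gene in each library. The median length of the 10 genes was 3377.5 bp, against 17425 bp for all protein-coding genes. Peaks covered 100% of the bodies of Id1, Id3 and Hes5 in each library, at least 98.6% of those of Hes1 and Hes6, and from 87.9% to 97.1% of that of Id2. For Hey1 the covered share was 74.1% to 77.2%, with the 3′ end of the gene outside the peak. It was 20.98% to 41.6% for Id4, 7.85% to 10.3% for Hey2 and 5.16% to 19.2% for Heyl. Within 10 kb on either side of the 5′-most start, peaks covered a mean over the 4 libraries of 16259 bp at Id3, 12679 bp at Hes5, 12530 bp at Hes1, 9733 bp at Id1 and 9207 bp at Id2. Hes6 had 6593 bp, Hey1 4328 bp, Heyl 3529 bp, Id4 2268 bp and Hey2 2215 bp. The median of the 10 genes was 7900 bp, against 2999 bp for genes with a TSS peak in all 4 libraries, of which 0.609% reached the value of Id3. The span of 10 kb was likewise set with the lists in view.

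**Figure D3:**
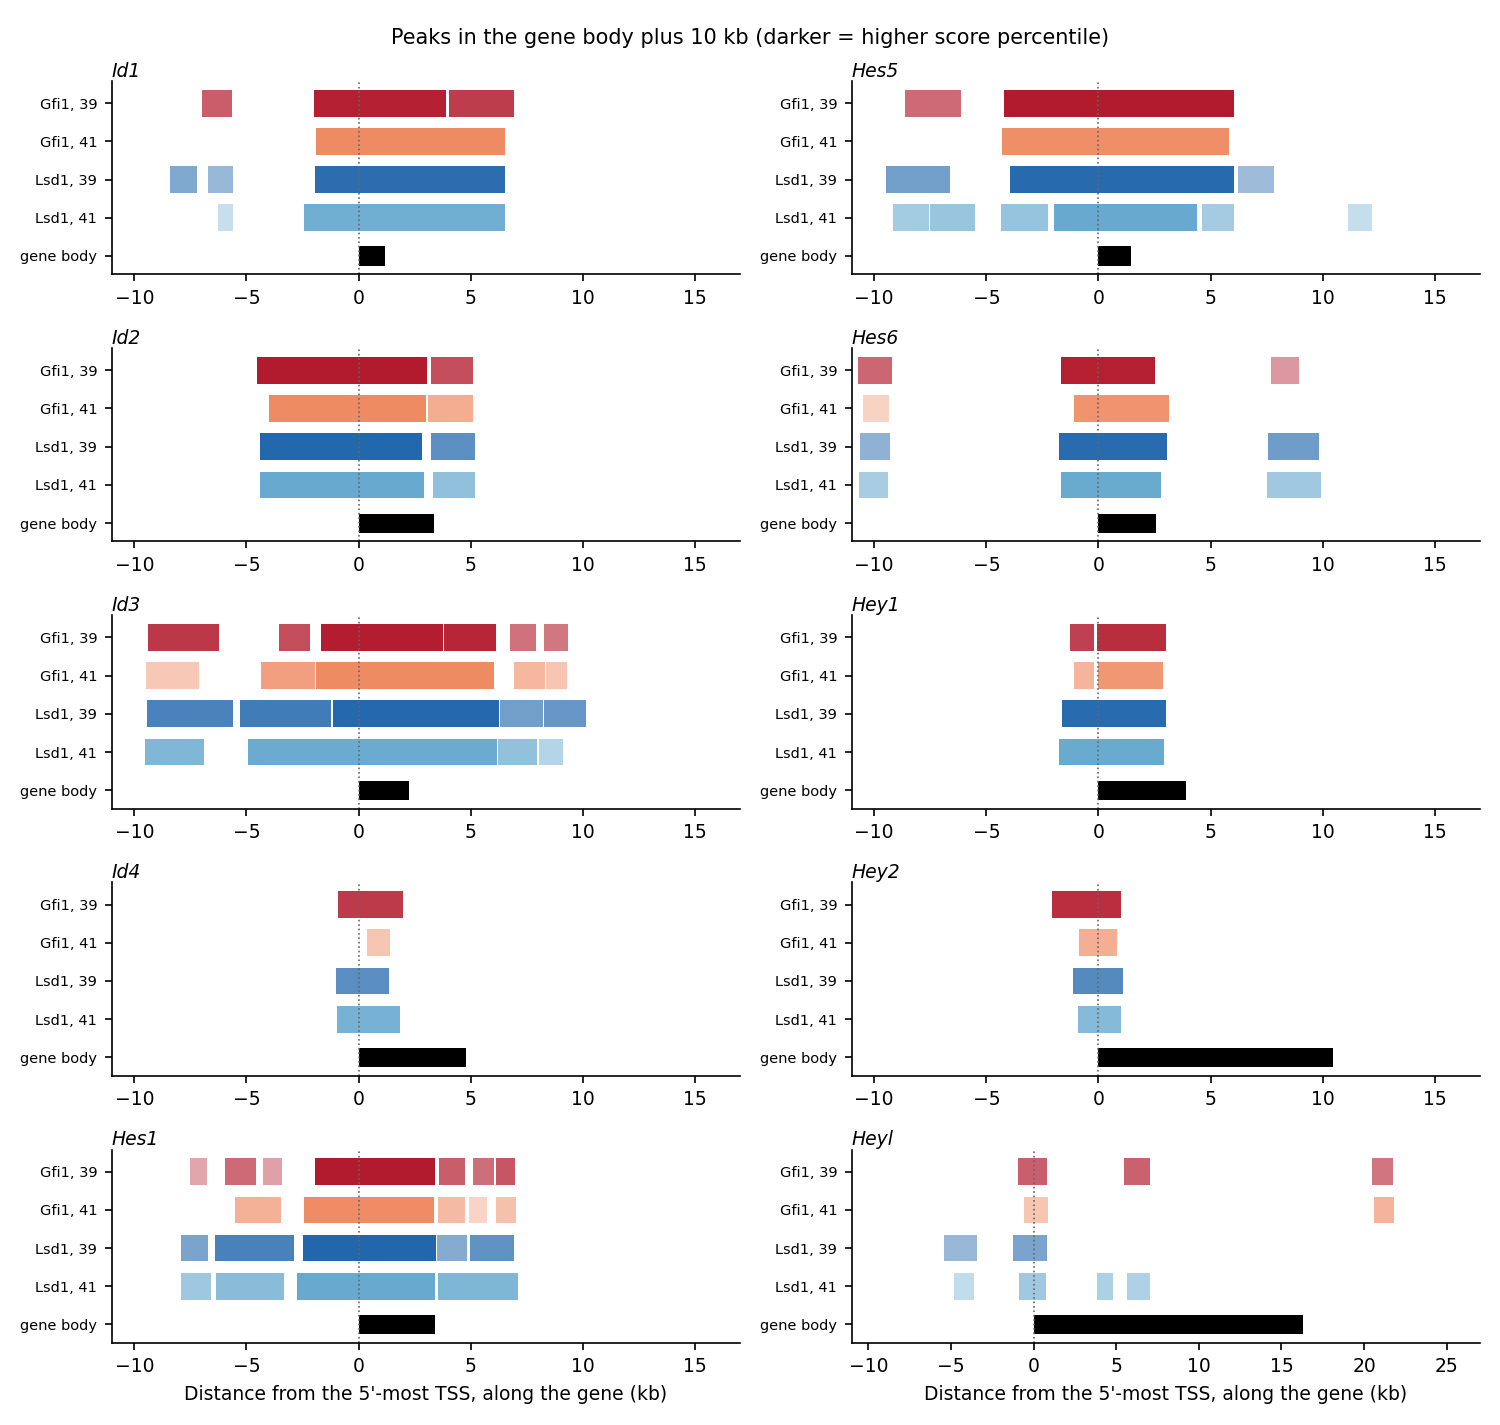
Peaks in the gene body plus 10 kb of each gene, drawn to scale by distance (kb) from the 5′-most TSS with the direction of transcription to the right. Each panel has 1 track per library and the gene body in black, and a darker bar has a higher score percentile. The TSS peaks of Id1, Id3 and Hes5 run past both ends of the gene, Hey1 has a break in the Gfi1 tracks at the TSS, and Heyl has separate small peaks.

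Gfi1 and Lsd1 peaks lay over each other at the start of each gene in each tumor. The bases that the 2 TSS peaks shared, as a share of all bases that either covered, were highest at Hes5 in tumor 39 (97.2%), Id2 in tumors 39 and 41 (95.2% and 92.8%), Hes1 in tumor 41 (94.9%) and Id1 in tumor 41 (93.9%). They were lowest at Id4 in tumor 41, at 35.6%, where the whole Gfi1 peak lay inside an Lsd1 peak that was 1824 bp wider. At Hey1 the difference in shape recurred in both tumors. Lsd1 had 1 peak across the start, of 4649 bp in tumor 39 and 4692 bp in tumor 41. Gfi1 had 2 peaks in each tumor, with a break from 185 to 47 bp upstream of the 5′-most start in tumor 39 and from 196 to 8 bp upstream in tumor 41. At Hes1, the Gfi1 peak lay wholly within the Lsd1 peak in both tumors, and the Lsd1 peak was wider by 592 bp and 311 bp.

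Taking all peaks in the windows of the 10 genes, Gfi1 had 30 in tumor 39 and 22 in tumor 41, and Lsd1 had 26 and 28. An Lsd1 peak of the same tumor overlapped, by 1 bp or more, 49 of the 52 Gfi1 peaks (94.2%), against 79.3% of the Gfi1 peaks in the windows of all protein-coding genes. In turn, a Gfi1 peak overlapped 42 of the 54 Lsd1 peaks (77.8%), against 71.7%. By tumor, the Gfi1 share was 93.3% in 39 and 95.5% in 41, against 71.7% and 90.2% over the windows of all genes. The Lsd1 share was 88.5% in 39 and 67.9% in 41, against 79.8% and 64.4%. In tumor 41 both shares thus lay near those of all genes. The library of Lsd1 in tumor 41 had the lowest share both in these windows and over all genes. The overlap in these windows depends on the width of the peaks. Cut to their central 200 bp, 30.8% of the Gfi1 peaks and 29.6% of the Lsd1 peaks overlapped. The cut was not made for the windows of all genes, so these shares have no background beside them.

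Away from the starts, 62 of the 106 peaks lay in the windows without coming within 1000 bp of a start of the gene. Of the 29 such Gfi1 peaks, 27 (93.1%) overlapped Lsd1 in the same tumor, against 67.6% of distal Gfi1 peaks in the windows of all genes. Of the 33 such Lsd1 peaks, 22 (66.7%) overlapped Gfi1, against 54.9%. By tumor, the distal Gfi1 share was 94.4% in 39 and 90.9% in 41, against 60.1% and 79.6% over all genes. The distal Lsd1 share was 81.3% in 39 and 52.9% in 41, against 62.1% and 48.5%. Most of the distal Gfi1 peaks lay at Id3 and Hes1, and none at Id4, Hey1 or Hey2, so their share largely describes a few genes. For the comparison over all genes, distal means farther than 1000 bp from a start of any protein-coding gene. Peaks that follow one another along a gene are not independent, so these shares are descriptions.

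Peaks of the 4 lists that touched were joined into 26 sites, of which 11 held a TSS peak and 15 were distal. The distal sites were found at Id1, Id2, Id3, Hes1, Hes5, Hes6 and Heyl, while Id4, Hey1 and Hey2 had none. Of the 15, 5 were present in all 4 libraries, 4 in 3, 2 in 2 and 4 in 1, and 8 lay upstream and 7 downstream of the 5′-most start. None of these 15 sites reached the upper 20% of the score in any library. Joining had placed 15 of the 62 distal peaks in sites that also hold a TSS peak, and these include a strong one, the Gfi1 peak of tumor 39 downstream of Id3 (chr4:136147289-136149602), 2315 bp from the nearest start, with a percentile of 91.2 and high confidence. Both proteins were found at 9 sites, Lsd1 alone at 5 and Gfi1 alone at 1.

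The 5 distal sites present in all 4 libraries lay at Id2, Id3, Hes6 and, on both sides, at Hes1. All but the Hes6 site lay next to the joined TSS site of their gene, with small gaps. The TSS site began at 25094088 at Id2 and at 136138199 at Id3, and ran from 30061644 to 30067842 at Hes1. Whether these distal sites are pieces of a wider stretch was not tested. The strongest of the 5 was upstream of Id3 (chr4:136133981-136137897), from 9516 to 5600 bp before the start. It had Gfi1 percentiles of 79.1 in tumor 39 and 17.2 in tumor 41 and Lsd1 percentiles of 71.5 and 74.7. The Gfi1 values of the tumors lay far apart there, and the Lsd1 values close together. In Lsd1 of tumor 39 this site also covered an annotated start of Gm26001. The site at the 3′ end of Id2 (chr12:25091942-25094039) had Gfi1 percentiles of 65.3 and 53.8 and Lsd1 percentiles of 58.9 and 57.9. Upstream of Hes1, the site at chr16:30058001-30061521 had Gfi1 percentiles of 45.0 and 48.0 and Lsd1 percentiles of 72.2 and 65.5, and both Lsd1 values were the higher. Just past the 3′ end of Hes1, the site at chr16:30067859-30071494 had Gfi1 percentiles of 59.1 and 36.01 and Lsd1 percentiles of 55.7 and 77.3. The Hes6 site, which lay 9228 bp or more upstream, was weak in all 4 libraries, with a highest percentile of 48.1.

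Heyl, the weakest gene at its main start, had sites at which 1 protein was found in both tumors and the other in neither. A site past the 3′ end of the gene (chr4:123254056-123255379), at least 20500 bp from the main start, had Gfi1 peaks in both tumors, at percentiles 38.0 and 44.9, and no Lsd1 peak in either. A site upstream of Heyl (chr4:123228134-123230119) had Lsd1 peaks in both tumors, at percentiles 16.7 and 8.04, and no Gfi1 peak in either. An internal start of Heyl, from 5472 to 7041 bp downstream of the main one, had a peak in Gfi1 of tumor 39 (percentile 51.2) and in Lsd1 of tumor 41 (27.7) only, so each protein was found there in a different tumor. The Lsd1 percentiles of the upstream site lie near the floor of their lists, and the Gfi1 percentiles past the 3′ end lie nearer the middle. An absent peak says only that none was called. Downstream of Hes6, a site in 3 libraries covered an annotated start of 1700020N18Rik, with percentiles of 15.0 for Gfi1 of tumor 39 and 45.6 and 42.3 for Lsd1.

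By percentile, the values of the 2 tumors lay farthest apart at Id4, Hey2 and Heyl, and there for Gfi1. The difference of tumor 41 minus tumor 39 in the Gfi1 percentile was -57.6 points at Id4, -33.5 at Hey2 and -31.2 at Heyl. The same difference for Lsd1 was 22.6, 5.98 and 3.60 points. Among the other 7 genes, Gfi1 was lower in tumor 41 at Id2, Hes1, Hes5, Hes6 and Hey1 and higher at Id1 and Id3, with differences from -7.66 points at Hes6 to 2.94 at Id1. The Lsd1 differences there ran from -2.84 points at Id1 to 3.53 at Hes5. For genes with a TSS peak in all 4 libraries the median difference was -7.26 points for Gfi1 and 2.27 points for Lsd1, which is the direction seen at 8 of the 10 genes and at 56.0% of those genes. The 2 proteins differed in opposite directions at all 10 genes and at 68.2% of the genes with a TSS peak in all 4 libraries. At Id2 and Hes1 the differences of -0.112 and -1.13 for Gfi1 and 0.326 and 0.0457 for Lsd1 involve peaks tied at 3100, so their signs carry little.

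The percentile scale is compressed near its top, where large differences in score give small ones in percentile. At Hes1 the Gfi1 score itself was 3100 in tumor 39 and 1250 in tumor 41, at Hes5 3100 and 943, and at Hes6 2566 and 690.09, while their percentiles stayed close. The contrast between weakly and strongly marked genes is therefore a description of ranks. The Gfi1 list of tumor 41 is also the shortest, at 25078 peaks against 36836 in tumor 39. By the study's numbers, the Gfi1 library of tumor 41 has more mapped reads than that of tumor 39. The part of list length and depth in these differences was not tested.

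**Figure D4:**
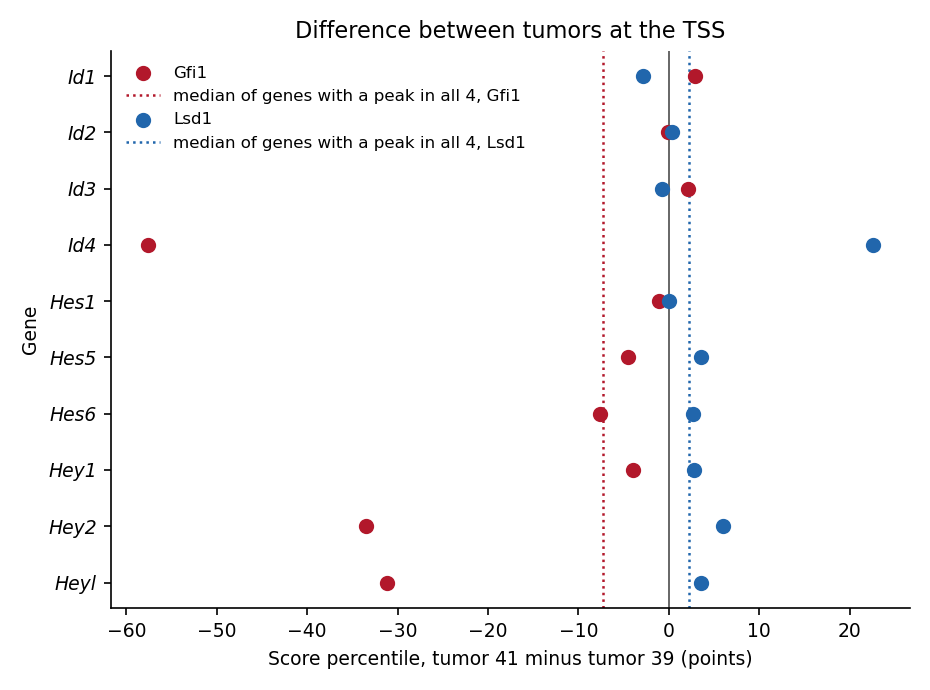
Difference in score percentile (points, tumor 41 minus tumor 39) of the TSS peak of each gene, with Gfi1 in red and Lsd1 in blue. Dotted lines are the medians over the 11653 genes with a TSS peak in all 4 libraries, -7.26 for Gfi1 and 2.27 for Lsd1. Id4, Hey2 and Heyl lie far to the left for Gfi1, at -57.6, -33.5 and -31.2.

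Most of these genes have CpG-rich starts, as do most genes with peaks. The ratio of observed to expected CpG was taken within 500 bp of each annotated start, and the highest of a gene was kept. Its median was 0.788 over the 10 genes, 0.776 over genes with a TSS peak in all 4 libraries and 0.627 over all protein-coding genes. A gene with more starts has more chances of a high ratio. The median number of starts was 3, 5 and 3 in the same order. At a ratio of 0.6 or more, 8 of the 10 genes were CpG-rich, and Id1 (0.597) and Heyl (0.593) lay just below. Among CpG-rich protein-coding genes, 84.6% had a TSS peak in all 4 libraries, as did all 8 members. High-confidence peaks of both proteins were found at 34.4% of CpG-rich genes and at 6 of the 8. A TSS peak of 5000 bp or more in all 4 libraries was found at 2.99% and at 4 of the 8. Id4, with a ratio of 1.01, and Hey2, with 0.853, had mean percentiles over the 4 libraries of 60.6 and 67.7. Id1, just below the limit, had a mean of 94.8. Whether the CpG ratio goes with peak strength was not tested.

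The motifs searched in the promoters are AATC for Gfi1, TGGGAA for Rbpj, CACNAG (the N box bound by Hes proteins), CANNTG (the E box bound by E proteins and proneural factors) and GGCGCC (a GC site bound by BMP Smads), each on both strands. RefSeq promoters were matched for 6 of the 10 genes, Id2, Id3, Id4, Hes5, Hes6 and Hey2, with 7 promoters in all because Hes6 has 2. Id1, Hes1, Hey1 and Heyl had no entry. AATC was found in 3 of the 7 promoters and in 73.1% of 32851 promoters of the same length. TGGGAA was found in 3 of the 7 and in 25.6% of all, and the N box in 3 of the 7 and in 42.5%. The E box was found in 5 of the 7 and in 72.3%. GGCGCC was found in 4 of the 7 and in 11.9%, and the Hes5 promoter alone held 4 of its copies, at -123, -106, -69 and -54. With 7 promoters these shares are descriptions. The strongly marked Id3 promoter held none of the 5 motifs, and the weakly marked Id4 promoter held 4 of them.

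For comparison, 29 genes of the same pathways were read in the same way. Of these, 22 had a TSS peak in all 4 libraries (53.1% of all genes), 13 had high-confidence peaks of both proteins (19.5%) and 4 had wide TSS peaks in all 4 (1.98%). The Groucho co-repressors, which Hes proteins recruit, had high-confidence peaks of both at 3 of 4 genes (Tle1, Tle3 and Tle4). Tle3 had percentiles of 98.6 and 99.9 for Gfi1 and 99.7 and 99.2 for Lsd1. Of the 5 Notch signal genes, which act upstream of the Hes and Hey genes, 4 had high-confidence peaks of both (Notch1, Notch2, Rbpj and Maml1). Of the 7 BMP signal genes, which act upstream of the Id genes, all had a TSS peak in all 4 libraries, but only Smad4 had high-confidence peaks of both. Their median mean percentile was 67.9, against 93.6 for the Notch signal genes.

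Among the other Hes-like repressors, 4 of 6 had a TSS peak in all 4 libraries and 3 had high-confidence peaks of both (Hes7, Bhlhe40 and Bhlhe41). Hes7, the oscillator of somite formation, had Gfi1 percentiles of 98.6 and 99.8 and Lsd1 percentiles of 99.997 and 99.2, while Helt had 1 peak, in Gfi1 of tumor 39, and a mean of 7.24. All 3 E proteins, the partners that Id proteins hold back, had a TSS peak in all 4 libraries, and Tcf3 and Tcf4 had high-confidence peaks of both. The 4 proneural genes read here, which the Hes and Hey proteins repress, had the lowest median mean percentile of the lists, 35.3. Neurog2 alone had a TSS peak in all 4 libraries, and none of the 4 had a high-confidence peak of either protein. Atoh1, the proneural factor of granule neuron progenitors, had the lowest mean of the 4, 29.7, from a Gfi1 peak in tumor 39 (percentile 60.6) and an Lsd1 peak in tumor 41 (58.4). These counts are descriptions of short lists, and no list was tested against another.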

How the data were processed

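Gfi1 and Lsd1 ChIP-seq libraries of 2 MG tumors were used, paired by tumor. The authors aligned reads to mm10 with BWA 0.6.2, removed duplicates with Picard and called peaks in each library with MACS at default settings against input. The deposited lists give positions and a score, 50.0 or more, whose definition is not given in the sources used here. Mapped reads per library are given by the study, but the lists carry no counts, so no precision per peak can be given. Starts were converted to 1-based positions. Genes and TSSs came from GENCODE M21 (the authors used M9), and promoters from RefSeq for GRCm38.p6. A percentile is the mid-rank of a score in its list. The high-confidence set was built after the study's rule, with the score in place of its enrichment. It held 4387 Gfi1 and 5181 Lsd1 peaks. The study reports larger sets for both proteins, so the calls here are not the study's own. By rule, the 10 genes, the highest and lowest related genes and neighbours whose start lay under a peak were named. Other related genes are named where they make up a count of 5 or fewer, chosen after their values were seen. Of the related genes, 1 is not reported here. Interval steps were tested on simulated data. Python 3.11.15, numpy 2.4.6, pandas 2.3.3 and pysam 0.24.0 were used. The genes, lists and alternatives were chosen with earlier results of these data known. The lists hold no expression, so the tissue was not checked by markers.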

Additional observations from a re-analysis of the deposited data

Results flagged for a closer look

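At all 10 genes the Gfi1 and Lsd1 percentiles of the TSS peak moved in opposite directions between tumors 39 and 41, as they did at 68.2% of the 11653 genes with a TSS peak in all 4 libraries. At Id2 and Hes1 the sign involves peaks tied at a score of 3100. The difference of the Lsd1 change minus the Gfi1 change (tumor 41 minus tumor 39, points) was 80.28 at Id4, 39.46 at Hey2 and 34.8 at Heyl. It was 10.27 at Hes6, 8.043 at Hes5, 6.82 at Hey1, 1.174 at Hes1, 0.4372 at Id2, -2.875 at Id3 and -5.779 at Id1. The difference was not tested, since each protein has 1 pair of libraries. Over the same 11653 genes its median was 10.1 points, and 1.10% of these genes reached the value of Id4, 11.2% that of Hey2 and 14.4% that of Heyl. At Id4, the Gfi1 peak of tumor 41 had a percentile of 20.2 and lay off the start.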

How the results depend on the processing

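The counts of genes with a TSS peak (8 to 10 of 10, and 7 in the upper 20% of the score) and with high-confidence peaks of both proteins (5 to 7) stayed within 1.5 times the values reported under every alternative run for them. High-confidence Gfi1 peaks were found at 5 genes with the upper 10% of the score, and both proteins at 5. Leaving out each library in turn gave medians of 91.1 to 95.9 (Gfi1) and 95.1 to 97.1 (Lsd1). It gave 7 genes with high-confidence peaks of both and 5 with wide peaks each time. Leaving a library out loosens both rules, since the replicate overlap falls away and wide peaks are needed in fewer libraries. These counts of genes could therefore hardly fall, and their stability says little. The windows held 76 to 84 peaks, since those of the library left out are missing. Distal peaks numbered 36 with 5 kb of flank and 107 with 20 kb, against 62. The share of Gfi1 peaks overlapping Lsd1, 94.2%, became 88.0% with 20 kb, 91.3% in the upper 80% of the score, 96.2% with the partner list of the other tumor and 30.8% for central 200 bp, where the Lsd1 share was 29.6%. With alternatives chosen after seeing the data, 2 genes had peaks of 6000 bp or more, and 6 had high-confidence peaks of both that cover no start of another gene. CpG-rich genes as the background raised 53.1% to 84.6% and 19.5% to 34.4%. No paired analysis was possible because none of these results comes from a test. Values within each tumor are given side by side instead. The lists carry no read counts, and an absent peak says only that none was called.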
